A study of Homo sapiens with 2 samples.

Results

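Expression of 10 liver progenitor and cancer stem cell markers was examined in Huh7, an established human hepatocellular carcinoma line. The set comprised SPP1, EPCAM, CD24, PROM1, ANPEP, SOX9, SOX4, ELF3, SALL4 and LIN28B. They were taken by gene symbol from a deposited table of 56558 symbols, and each of the 10 occurred on 1 row. Of the libraries, 1 came from cells labelled Neil3 KD, a knockdown of the DNA glycosylase NEIL3, and 1 from shGFP control cells, a name that usually stands for a short hairpin against green fluorescent protein. Both groups were at passages 5 to 8, and no other genotype, agent or treatment is given in the labels; how NEIL3 was knocked down, and whether the cells were 1 clone or a pool, was not stated in the sources used here. Levels are FPKM, fragments scaled to transcript length and to library size, so genes of different length can be set side by side. How library size was measured is not known here. With 1 library per group there is no replicate check and no test, and "higher" and "lower" describe these 2 libraries.

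Progenitor cells of the liver can give rise to hepatocytes and bile duct cells. They carry surface proteins such as EPCAM and PROM1 and the ductal transcription factor SOX9, which mature hepatocytes mostly lack. Hepatocellular carcinomas often switch such genes on again, together with fetal regulators such as SALL4 and LIN28B, and cells sorted on EPCAM, CD24, PROM1 or ANPEP have been described as tumour-initiating. LIN28B binds precursors of the let-7 microRNAs and blocks their maturation, while mature let-7 binds the 3′ untranslated region of the LIN28B mRNA, so the pair form a loop of mutual repression.

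The let-7 pairing is shown because LIN28B had the lowest log2 ratio of knockdown to control among the 10 genes. All 8 let-7 5p microRNAs in RefSeq (GRCh38.p14) that were matched by name share 1 seed, bases 2 to 8, in capitals here for 3 of them.
let-7a-5p: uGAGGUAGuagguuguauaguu
let-7e-5p: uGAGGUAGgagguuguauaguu
let-7i-5p: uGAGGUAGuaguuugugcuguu

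The 3′ untranslated region of LIN28B in GENCODE release 29 (GRCh38), 4549 bases long, holds the complement of that seed 4 times. Each site is given below with its flanks, the 7 complementary bases in capitals, all on the plus strand of chromosome 6.
chr6:105078812-105078840: acccggttgcaaagtCTACCTCatgcaag
chr6:105081239-105081267: tactgatgatagtaaCTACCTCtgagttt
chr6:105081421-105081449: gtttacagcaaaaggCTACCTCatagttg
chr6:105082860-105082888: aaatgatggtgttgaCTACCTCttgaatc

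SALL4 holds 1 such site in a region of 1934 bases, and the other 8 markers hold 0. Of 11599 protein-coding genes tested with an annotated 3′ untranslated region, 1141 (9.84%) hold at least 1 site. A match describes letters only and is not evidence of binding.

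Promoter windows of 250 bases upstream of a RefSeq start were found for 7 of the 10 genes, in 14 entries. The window of SPP1 and the upstream one of ANPEP are printed because these genes were the furthest above control on the log2(FPKM + 1) scale. Capitals mark the core motif of ETS factors (GGAAGT), the family of ELF3, and that of RUNX factors (TGTGGT), on either strand.
SPP1, chr4:87975464-87975713, plus strand: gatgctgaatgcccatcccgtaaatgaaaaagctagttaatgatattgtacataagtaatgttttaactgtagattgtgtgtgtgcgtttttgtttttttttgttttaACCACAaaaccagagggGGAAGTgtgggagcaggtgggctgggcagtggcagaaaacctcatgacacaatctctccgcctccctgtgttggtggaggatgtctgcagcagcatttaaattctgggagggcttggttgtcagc
ANPEP, chr15:89814853-89815102, minus strand: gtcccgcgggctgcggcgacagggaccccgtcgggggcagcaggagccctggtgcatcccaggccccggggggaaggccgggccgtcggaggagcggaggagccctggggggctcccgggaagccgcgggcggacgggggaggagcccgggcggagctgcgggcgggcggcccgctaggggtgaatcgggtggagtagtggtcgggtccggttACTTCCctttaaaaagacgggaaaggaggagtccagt

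The SPP1 window had a GC content of 44.8% with 3 CpG dinucleotides and held both motifs, while the ANPEP window had a GC content of 74.0% with 26 CpG and held the ETS core and 4 GC boxes (GGGCGG). The other ANPEP window, at a start further downstream (chr15:89806629-89806878), had a GC content of 64.4% with 9 CpG and held 0 of the motifs searched. The median over 35116 promoter windows of the same length was a GC content of 58.0% and 11 CpG. Because the 14 windows include alternative starts of the same gene, and some windows of CD24 overlap, they are not independent units. The ETS core occurred in 4 of the 14 windows and in 19.5% of all windows, and the RUNX core in 1 of 14 and in 11.0% of all. The CCAAT box (CCAAT) was in 5 of 14 windows against 32.01% of all, the GC box in 5 against 42.6%, the TATA box (TATAAA) in 1 against 10.7%, the SOX core (ACAATG) in 1 against 9.29% and the AP-1 motif (TGANTCA) in 1 against 6.57%, each on both strands.

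The targeted gene NEIL3 stood at 5.34 FPKM in shGFP cells and 2.84 FPKM after knockdown, a plain ratio of 0.532. In the authors' deposited table NEIL3 had p = 0.280 and q = 0.9996, so the targeted gene was not called there. Both libraries carried hepatocyte markers: all 8 listed reached 1 FPKM, 2 of them (SERPINA1 and TTR) at least 1.5-fold higher after knockdown, with a summed level of 2096 FPKM in shGFP cells and 2330 after knockdown. All 5 leukocyte markers were under 1 FPKM in both, and of 4 endothelial markers PECAM1 alone passed it, at 2.90 and 3.60 FPKM. Of 6 fibroblast markers 5 passed, with summed levels of 36.3 and 36.2 FPKM. In these bulk libraries, fewer cells of a type and less RNA per cell cannot be told apart. Among 6118 rows with low values the commonest ratio was 1.29, shared within 2% by 663 rows. If it stands for 1 fragment in each library, scaled to all fragments, the fragment number after knockdown was 77.8% of that in shGFP cells.

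The markers differed from one another far more than between the libraries. In the control, CD24 was the most abundant at 318 FPKM, followed by SPP1, SOX9 and LIN28B, with SALL4 and PROM1 last. In the knockdown library SPP1 stood first, EPCAM passed SOX4, and ANPEP passed ELF3; SOX9 and LIN28B kept the ranks 3 and 4, and SALL4 and PROM1 the ranks 9 and 10. The summed level of the 10 genes was 791 FPKM in shGFP cells and 1086 after knockdown, and SPP1 supplied 97.2% of that difference. Without SPP1 the sums were 644 and 652 FPKM.

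**Figure D1:**
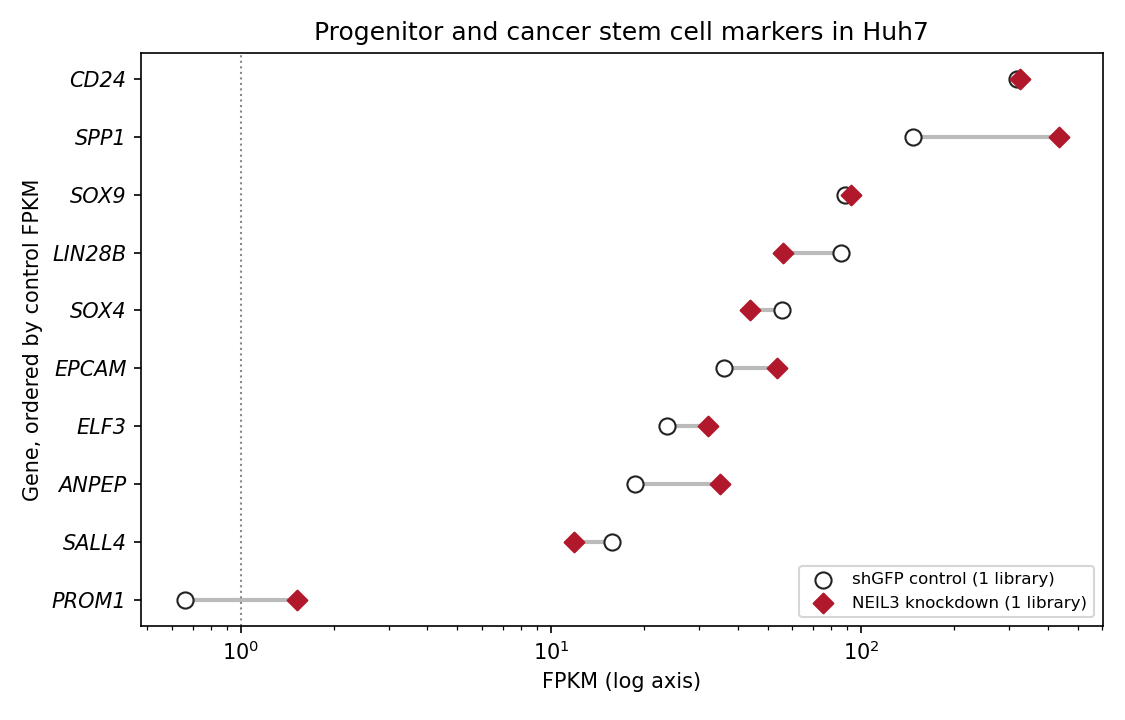
Level of each of the 10 markers in FPKM (log axis) in the shGFP control library (open circles) and the NEIL3 knockdown library (red diamonds), 1 library each, so no error bars are drawn. SPP1 moves from 148 to 434 FPKM and passes CD24, LIN28B moves from 86.1 to 55.9, and PROM1 lies on both sides of the dotted line at 1 FPKM.

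Of the 10 markers, SPP1, ANPEP and PROM1 were at least 1.5-fold higher in the knockdown library and LIN28B at least as far below control, on a scale of log2(FPKM + 1). The other 6 lay within 1.5-fold. With a pseudocount of 5 FPKM neither PROM1 (0.20) nor LIN28B (-0.58) passed 1.5-fold. PROM1 also missed it with the median ratio of protein-coding genes set to 1 (0.57) and with equal FPKM sums without mitochondrial genes (0.58), and it is not counted under an FPKM minimum of 5. For comparison, 14209 symbols reached 1 FPKM in either library, of which 4.55% were higher and 4.48% lower by that measure. The remaining 90.96% lay within 1.5-fold, and the counts for the gene lists are to be read against these shares. At 2-fold, 1 marker was higher and 0 were lower, against 1.34% and 1.28% of all symbols. The median log2 ratio of the 10 was 0.24, beside 0.02 over all symbols tested. Because PROM1 reached 1 FPKM in the knockdown library only, its place in these counts rests on its higher value there. The genes were chosen with earlier results of these libraries known, so the counts describe the set and support nothing more.

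**Figure D2:**
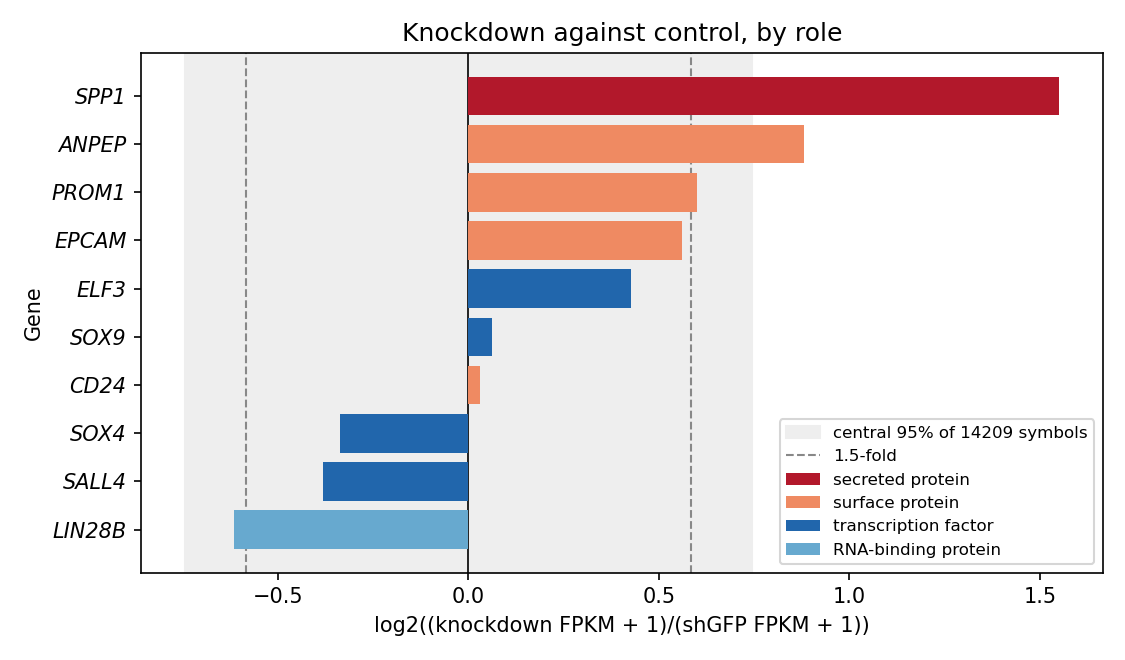
Log2 ratio of knockdown to control for each marker, on the log2(FPKM + 1) scale, coloured by the kind of protein; dashed lines mark 1.5-fold and the grey band the central 95% of 14209 symbols (-0.74 to 0.74). SPP1 and ANPEP lie beyond the band, at 1.55 and 0.88. The lowest marker, LIN28B, at -0.62, lies inside this band but outside that of the 1404 symbols with a mean of 50 to 200 FPKM (-0.45 to 0.59). PROM1, at 0.60, lies inside the grey band and inside that of the 6287 symbols with a mean of 1 to 10 FPKM (-0.89 to 0.83).

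SPP1 encodes osteopontin, a secreted phosphoprotein of the extracellular matrix that binds integrins and CD44 and is abundant in bile duct cells and liver tumours. Its gene (ENSG00000118785) spans bases 87975650 to 87983426 of chromosome 4, plus strand, in GRCh38. Across the libraries SPP1 stood at 148 FPKM in shGFP cells and 434 FPKM after knockdown, a plain ratio of 2.94 and a log2 ratio of 1.55. Its log2 ratio was the 55th highest of 14209. By level it went from rank 404 to rank 120 of all symbols, and its level relative to CD24 from 0.464 to 1.33. In the authors' deposited table SPP1 had p = 0.0006 and q = 0.0688; that test compares the reads of these libraries, not the conditions, and 0 of the 10 markers had q under 0.05 there, as 13 of 58220 genes did. Markers of other cell types that make osteopontin were close between the libraries: of 6 cholangiocyte markers 3 reached 1 FPKM, with summed levels of 34.0 and 35.5 FPKM in shGFP and knockdown and CFTR at the floor in both, and the 5 leukocyte markers summed to 0.855 and 0.894 FPKM. Their part in the level of SPP1 was not tested.

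The genes around osteopontin did not share a direction. Of 20 listed receptors, processing enzymes and relatives, 9 reached 1 FPKM, with 1 at least 1.5-fold higher, 1 lower and 7 within. The matrix protease MMP7, which cleaves osteopontin, was at 0.804 and 2.24 FPKM, shGFP value first, and so passed 1 FPKM in the knockdown library only. The receptor subunit ITGA5 stood at 7.49 and 2.77 FPKM. The more abundant subunits of osteopontin receptors were close, with ITGAV at 86.8 and 85.9 FPKM and ITGB1 at 203 and 202. CD44 was at 2.66 and 2.98 FPKM. IBSP, DMP1, DSPP and MEPE, the bone matrix relatives of SPP1, were under 1 FPKM in both libraries.

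Among the surface markers, ANPEP and PROM1 were higher in the knockdown library, EPCAM lay just under 1.5-fold and CD24 was close to equality. ANPEP encodes CD13, a membrane aminopeptidase (ENSG00000166825, chromosome 15, 89784889 to 89815401, minus strand). It stood at 18.6 FPKM in shGFP cells and 35.1 FPKM after knockdown, a plain ratio of 1.89 and the 247th highest log2 ratio of all symbols tested, at 0.88. Its value in the authors' deposited table was q = 0.680. Of 10 listed genes, the other aminopeptidases of its family with PROM2, 6 reached 1 FPKM and all 6 lay within 1.5-fold. LNPEP stood at 6.45 and 8.30 FPKM and ERAP1 at 10.9 and 13.2 FPKM.

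EPCAM is an epithelial adhesion molecule whose cleaved tail can enter the nucleus (ENSG00000119888, chromosome 2, 47345158 to 47387601, plus strand). It stood at 36.1 and 53.7 FPKM, a plain ratio of 1.49 and a log2 ratio of 0.56, which ranked 705 from the top among 14209 symbols. All 17 listed partners and cleaving proteases of EPCAM reached 1 FPKM, and all 17 lay within 1.5-fold, with a median log2 ratio of 0.03. The tetraspanin CD9 had the highest log2 ratio of them, at 23.0 and 34.2 FPKM, followed by CLDN7, a claudin that binds EPCAM, at 6.29 and 8.75. ADAM10 and ADAM17, metalloproteases that shed surface proteins, stood at 111 and 96.3 FPKM and at 21.1 and 17.2.

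PROM1 encodes prominin 1 or CD133, a protein of membrane protrusions (ENSG00000007062, chromosome 4, 15963076 to 16084378, minus strand). It was the least abundant marker, at 0.660 FPKM in shGFP cells and 1.52 FPKM after knockdown. These are low values, and the number of fragments behind them is unknown. The plain ratio was 2.30, while the log2 ratio with the pseudocount was 0.60, or 1.52-fold. Its 3′ end overlaps FGFBP2 on the same strand, which stood at 0.167 and 0.0714 FPKM. PROM2, its relative, was under 1 FPKM in both libraries.

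CD24 encodes a small, heavily glycosylated protein anchored in the membrane (ENSG00000272398, chromosome 6, 106969831 to 106975627, minus strand). It stood at 318 and 325 FPKM, 2.19% above control, and its log2 ratio turned from 0.03 to -0.02 when the median ratio of protein-coding genes was set to 1. The processed pseudogene CD24P4 was listed at 36.8 and 36.2 FPKM, so reads may be split between near-identical copies and the level of CD24 is uncertain.

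**Figure D3:**
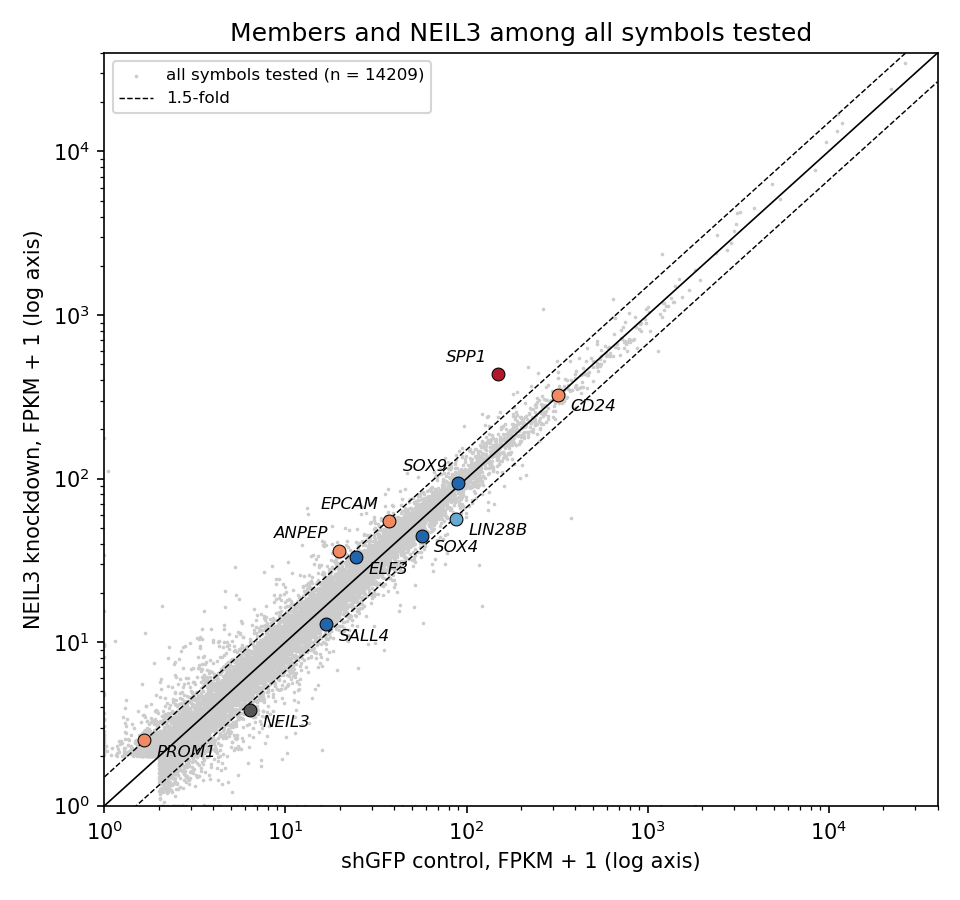
FPKM + 1 in the control library (x, log axis) against the knockdown library (y, log axis) for 14209 symbols (grey), with the 10 markers and NEIL3 named and coloured by role as in the plot of ratios; the solid line marks equality and the dashed lines 1.5-fold. SPP1 and ANPEP lie above the upper dashed line, PROM1 and EPCAM close to it, and LIN28B just under the lower one.

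The 4 transcription factors all lay within 1.5-fold. SOX9, a factor of bile duct cells (ENSG00000125398, chromosome 17, 72121020 to 72126420, plus strand), stood at 89.0 FPKM in shGFP cells and 92.9 after knockdown, a plain ratio of 1.04. SOX9-AS1, which spans SOX9 on the other strand, stood at 6.65 and 3.51 FPKM, shGFP value first. Reads of the pair may be mixed, because the strand setting was not stated in the sources used here. SOX4, a SOX factor of group C active in fetal tissues and in tumours (ENSG00000124766, chromosome 6, 21592768 to 21598619, plus strand), was at 55.5 and 43.7 FPKM, a plain ratio of 0.787. Of the 17 other SOX genes listed, 7 reached 1 FPKM and all 7 lay within 1.5-fold. SOX18 had the lowest log2 ratio, at 6.80 and 5.40 FPKM, followed by SOX12, of the same group as SOX4, at 20.5 and 16.9 FPKM.

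ELF3, an epithelial ETS factor (ENSG00000163435, chromosome 1, 202007945 to 202017188, plus strand), stood at 23.7 FPKM in shGFP cells and 32.2 after knockdown, a plain ratio of 1.36. ELF3-AS1, which overlaps it on the other strand, stood at 2.95 and 4.28 FPKM; how strand was set in the counting was not stated in the sources used here, so reads of the pair may be mixed. Of 13 other ETS factors 8 reached 1 FPKM, all within 1.5-fold. ETV4 had the highest log2 ratio, at 52.9 and 77.6 FPKM, and EHF, a close relative of ELF3, stood at 12.9 and 15.1.

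SALL4, a zinc finger factor of fetal liver and embryonic stem cells (ENSG00000101115, chromosome 20, 51782331 to 51802520, minus strand), stood at 15.8 FPKM in shGFP cells and 11.9 after knockdown, a plain ratio of 0.753. SALL4 recruits the NuRD chromatin complex. Of 16 genes listed for the SALL family and NuRD, 15 reached 1 FPKM, with 0 at least 1.5-fold higher, 1 lower and 14 within. The lower one was its relative SALL1, at 21.3 and 13.5 FPKM, while the NuRD subunit MTA3 stood at 30.7 and 21.8 FPKM. The core NuRD ATPase CHD4 stood at 79.5 and 77.5 FPKM.

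LIN28B (ENSG00000187772, chromosome 6, 104936616 to 105083332, plus strand), the RNA-binding protein of the let-7 loop described above, had the lowest log2 ratio of the 10. It stood at 86.1 FPKM in shGFP cells and 55.9 FPKM after knockdown, 1.54-fold lower by the plain ratio, with a log2 ratio of -0.62. Among the 1404 symbols with a mean level of 50 to 200 FPKM, as LIN28B had, 1.85% were lower by 1.5-fold or more, against 4.48% of all. In the control LIN28B stood 2.38 times as high as EPCAM, and in the knockdown library 1.04 times. Its paralog LIN28A was under 1 FPKM in both libraries, so LIN28B was the expressed member of the pair.

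Of 21 genes listed for the LIN28 and let-7 circuit, 20 reached 1 FPKM, with 0 at least 1.5-fold higher, 1 lower and 19 within, and a median log2 ratio of -0.07. MYCN, a MYC family factor, was the lower one, at 4.49 and 1.23 FPKM, and its 3′ untranslated region holds 0 of the 7-base sites. ARID3B, a let-7 target with 1 such site, stood at 30.4 and 21.9 FPKM. The let-7 target HMGA2, whose 3′ untranslated region holds 4 of the 7-base sites, stood at 106 and 123 FPKM, and IGF2BP1, also with 4, at 62.3 and 53.7 FPKM. TRIM71, with 6, stood at 36.5 and 29.1 FPKM. All 11 let-7 hairpin genes are listed at the floor of the table in both libraries, so let-7 itself was not measured.

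Other stem cell markers and bile duct genes mostly lay within 1.5-fold, as did 90.96% of all symbols tested. Of 17 other stem cell and pluripotency markers, 12 reached 1 FPKM, with 0 at least 1.5-fold higher, 1 lower and 11 within. DLK1, a fetal surface protein of hepatoblasts, was the lower one at 52.9 and 34.5 FPKM, and the pluripotency factor KLF4 stood at 2.12 and 3.07 FPKM. LGR5, a Wnt-linked stem cell receptor, was at 57.6 and 75.1 FPKM and the dehydrogenase ALDH1A1 at 846 and 712. THY1, KIT, NCAM1, NANOG and POU5F1 were under 1 FPKM in both libraries. Of 17 biliary and ductal genes 13 reached 1 FPKM, all within 1.5-fold, with CLDN7 highest by log2 ratio and YAP1, a growth regulator, lowest at 93.7 and 68.7 FPKM. The bile duct keratin KRT19 stood at 30.1 and 32.1 FPKM, and the cholangiocyte genes CFTR and SCTR were under 1 FPKM in both.

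**Figure D4:**
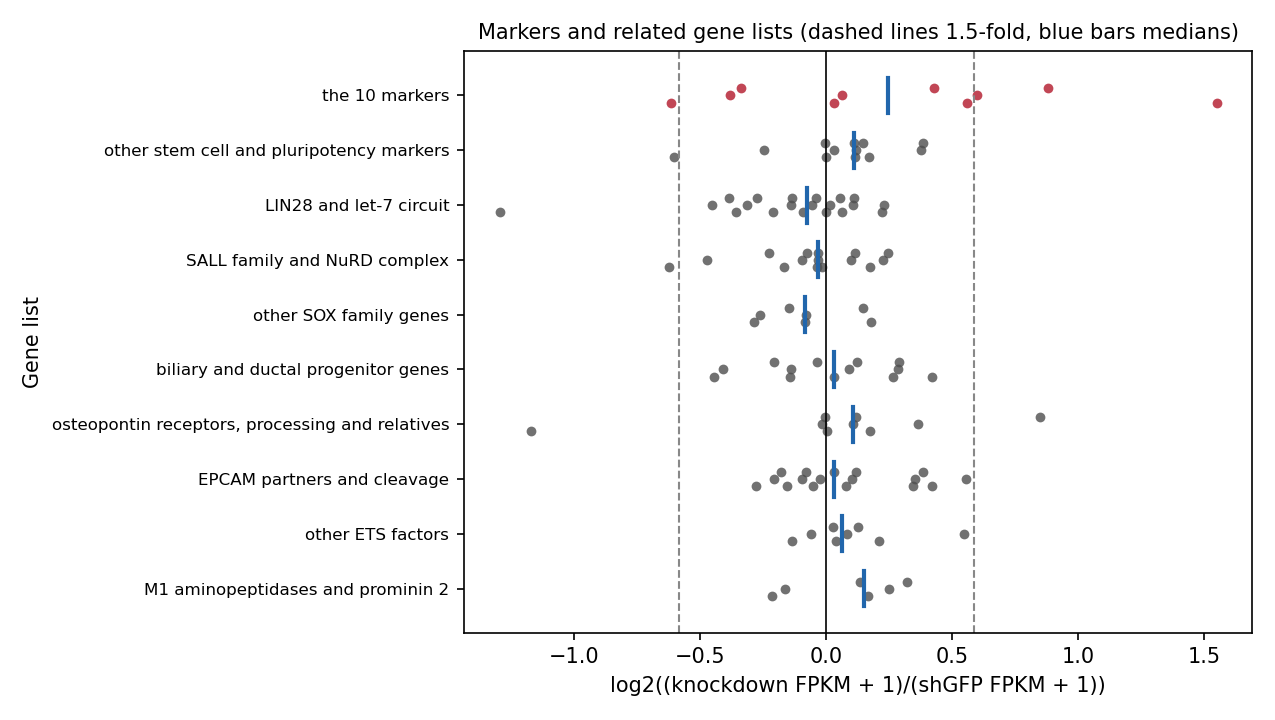
Log2 ratio of knockdown to control on the log2(FPKM + 1) scale for the 10 markers (red) and for the members of 9 related gene lists that reached 1 FPKM in either library (grey); blue bars are medians and dashed lines mark 1.5-fold. The markers run from -0.62 to 1.55. In each of 5 lists every gene lies within 1.5-fold, as do 90.96% of all symbols tested. The LIN28 and let-7 list runs from -1.30 to 0.23 and the osteopontin list from -1.17 to 0.85.

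Grouped by the kind of protein, the 5 secreted and surface markers were above 0 by log2 ratio, with a median of 0.60. CD24 was above 0 by 0.03 only and lay below 0 with the median ratio of protein-coding genes set to 1. The median of 0.60 is the value of PROM1, the least abundant marker. PROM1 had a log2 ratio of 0.20 with a pseudocount of 5 FPKM and a plain ratio of 2.30, so this median depends on the pseudocount. Of the 5 nuclear and RNA-binding markers 2 were above 0 and 3 below, with a median of -0.34. For comparison, 6324 of 11599 protein-coding genes tested with an annotated 3′ untranslated region were above 0. The median over all symbols tested was 0.02. The markers were chosen with earlier results of these libraries known, and no difference between these 2 groups was tested. LIN28B, CD24 and SOX4 lie on chromosome 6, with LIN28B and CD24 1.89 Mb apart, and these neighbours had log2 ratios of -0.62 and 0.03.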

How the data were processed

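Total RNA of 1 control and 1 knockdown library was made into libraries with a strand-specific kit, per the labels' protocols. The submitters' processing notes name build GRCh38.p10, Cufflinks 2.2.1, Cuffdiff, HISAT2 2.1.0, Trimmomatic 0.36, SAMtools 1.2 and bcl2fastq; annotation and strand setting were not stated in the sources used here. FPKM values for 58220 genes were deposited by the authors, per the file headers, and undetected genes are listed at 1e-05. Ratio and log2 columns, also deposited, give knockdown over control without a pseudocount, per the file headers, and match the quotient of the FPKM columns within 0.1% in all 58220 rows. Deposited p-values and q-values come from the authors' comparison, per the file headers.

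The row of highest mean FPKM was kept for each of 213 symbols on several rows. Log2 ratios are log2((knockdown + 1)/(control + 1)), which understates low genes; plain ratios have no pseudocount. Symbols were counted if FPKM was 1 or more in at least 1 library, and called at 1.5-fold. No count test fits FPKM. The number of fragments was not stated in the sources used here. Among 6118 rows under 0.3 FPKM in each library, and above the floor, the commonest ratio was 1.29 (663 rows within 2%). With levels scaled to all fragments, that is 1 fragment in each library if the knockdown held 77.8% as many. No counting interval is given.

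The members and gene lists were chosen with earlier results of these data known, and the motif and let-7 searches after the members' values were seen. From each list the text names genes past 1.5-fold, at most 4, or the 2 largest ratios; others named beside them were chosen after their values were seen. The 3′ untranslated regions are those of the APPRIS principal transcript in GENCODE release 29, or else of the longest. Python 3.11.15, pandas 2.3.3 and numpy 2.4.6 were used.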

Additional observations from a re-analysis of the deposited data

How the results depend on the processing

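Other choices of pseudocount, scaling and row handling gave 60 alternative log2 ratios for the 10 markers, of which 56 stayed on their side of 1.5-fold and 0 reversed a called direction. Part of this was fixed beforehand. Each marker occurred on 1 row, so summing rows left its value unchanged, and a pseudocount cannot change the sign of a ratio. SPP1 ran from 1.502 to 1.556 and ANPEP from 0.76 to 0.92, past 1.5-fold in all. PROM1 dropped under 1.5-fold with a pseudocount of 5 FPKM (0.20), with the median ratio of protein-coding genes set to 1 (0.57) and with equal FPKM sums without mitochondrial genes (0.58); its plain ratio was 2.30. LIN28B dropped under it with a pseudocount of 5 FPKM (-0.58), which left 0 lower markers, and the median of the markers was then 0.13. With an FPKM minimum of 5 the median was 0.062 over 9 markers. At 2-fold 1 marker was higher and 0 lower. CD24, never called, ran from -0.02 to 0.03. Over 100 symbols of the 9 related lists, 1 was higher and 4 lower; these counts were 0 and 2 with a pseudocount of 5 FPKM, and 0 were higher with an FPKM minimum of 5. The shrinkage with a larger pseudocount follows from its construction. Among protein-coding genes alone 4.08% were higher and 3.86% lower. No paired analysis was possible because each group has 1 library, and for the same reason no library could be left out. The number of fragments is unknown, so no counting interval could be set beside the low values of PROM1.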

Other observations

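Genes whose 3′ untranslated region holds several let-7 seed complements were counted because LIN28B is one of them. Of all 11599 genes tested with an annotated region, 4.07% were higher by 1.5-fold or more and 3.85% lower. Of the 130 with 2 or more sites, 1 (0.769%) was higher and 9 (6.92%) were lower, with a median log2 ratio of -0.04. Without LIN28B the counts were 1 and 8 of 129. Among 1011 genes with 1 site 40 were higher and 40 lower (3.96% each), with a median of 0.02. Among 10458 genes with 0 sites 431 (4.12%) were higher and 397 (3.80%) lower, with a median of 0.03. Length moves with the number of sites: the median untranslated region was 5180 bases for 2 or more sites and 981 bases for 0. Another 857 genes had 0 sites and a region of 4000 bases or more, with a median length of 5170. Of these, 35 (4.08%) were higher and 27 (3.15%) lower, with a median log2 ratio of 0.01. A lower length limit gave 2796 genes with 0 sites, which include those 857, with a median length of 3177 bases. Of the 2796, 104 (3.72%) were higher and 113 (4.04%) lower, with a median log2 ratio of 0.02. Which share was larger among genes with 0 sites thus depended on the length limit. Neither the part of length nor that of let-7 was tested, and these splits were chosen after the value of LIN28B was seen.

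Chosen after their values were seen, the genes furthest down among those with 3 or more sites were FIGNL2 with 3 sites, LIMD2 with 4 and IGDCC3 with 4. FIGNL2 stood at 4.44 FPKM in shGFP cells and 0.549 after knockdown, LIMD2 at 20.8 and 9.30 FPKM, and IGDCC3 at 23.7 and 11.6 FPKM. Furthest up among the genes with 3 or more sites were ARIH1, C14orf28 and ACP6, each with 3. Their log2 ratios were 0.35, 0.33 and 0.28. HMGA2, with 4 sites, had a log2 ratio of 0.22. No count of mature let-7 was made in these libraries.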
